A study of Mus musculus with 12 samples.

Results

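The genes described here code for the proteasome. They were taken by name as all non-control probes whose gene name is Psm, a letter from a to g and a number, which gave 47 of the 29608 genes on the arrays, measured by 59 probes in 68 spots. The family holds the alpha and beta rings of the 20S core (Psma, Psmb), the 19S cap (Psmc, Psmd), activators and an inhibitor (Psme, Psmf) and assembly chaperones (Psmg and some Psmd). Total RNA was taken from the cortex of 12 adult female mice in diestrus, 4 in each of 3 groups. MRL/lpr mice carry the lpr mutation of Fas and develop a lupus-like disease. Fn14ko mice (strain label Fn14koMRL) carry the same lpr mutation and in addition lack Fn14, the TWEAK receptor encoded by Tnfrsf12a. MRL/lpr and Fn14ko mice, the latter made by backcross, were bred at the same source, which was not that of the controls. MRL/+ mice (strain label MRL/MpJ) have intact Fas and Fn14, and were bought from a supplier. The RNA of a pair of mice of the same group was hybridised to each of 6 two-colour Agilent arrays, replicates 1 and 3 in Cy3 (green) and replicates 2 and 4 in Cy5 (red). Each of the 3 slides held 1 group only, so a difference between slides cannot be told apart from one between groups, nor can the source of the mice from the MRL/+ group.

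The proteasome degrades proteins that carry ubiquitin chains. Its core is a barrel of alpha and beta rings, in which the beta subunits Psmb5, Psmb6 and Psmb7 hold the active sites, and its cap binds the tagged protein, removes ubiquitin, unfolds the chain and feeds it in. Interferon induces Psmb8, Psmb9 and Psmb10, which take the places of Psmb5, Psmb6 and Psmb7 in newly built cores and form the immunoproteasome, a source of peptides for MHC class I. In the brain, neurons rely mostly on the constitutive form, and microglia and infiltrating leukocytes are known sources of the inducible one.

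Several results below rest on single probes, and the probes of an inducible subunit and its constitutive counterpart can be compared directly. Psmb8 and Psmb5 are related genes, and their probes lie over matching parts of the transcripts. They are shown with capitals at the 31 identical bases of a 50-base alignment without gaps, in which the other 19 bases differ (62% identity). Of the 2 kept Psmb5 probes, which were averaged in the gene's level, the one that aligns (A_55_P2115068) is at chr14:55233161-55233220 on the minus strand and the Psmb8 probe at chr17:34337771-34337830 on the plus strand (mm9, as the array files give it).
Psmb5: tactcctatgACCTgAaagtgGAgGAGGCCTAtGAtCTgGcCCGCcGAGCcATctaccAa
Psmb8: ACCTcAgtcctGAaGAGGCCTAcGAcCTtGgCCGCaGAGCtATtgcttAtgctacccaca

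Psmb2, the beta-ring gene with the largest difference between groups, was read by 1 probe of 60 bases. Its interval in the array files, chr4:126361456-126364299 (mm9, plus strand), is longer than the probe, and the exons under it were not checked, since no mm9 annotation was used here. The kept Psmb9 probe is at chr17:34319174-34319233 on the minus strand.
Psmb2: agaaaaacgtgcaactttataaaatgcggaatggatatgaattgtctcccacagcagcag
Psmb9: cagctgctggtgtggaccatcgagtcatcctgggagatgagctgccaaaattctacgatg

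Of the 47 genes, 44 passed the study's spot filter, as did 17302 of all genes on the arrays. The filter left out every spot that the scanner software marked and every spot with a foreground under 2 times its background in any mouse. Levels below are background-corrected intensities divided by the median of the mouse's kept spots, so a level of 1 is that of the median spot. They are compared only between mice or groups, for a gene, a ratio of 2 genes or a sum over a list. Psma8, a testis form of the alpha ring, and Psmb11, a thymus form of the beta ring, were not kept. The Psma8 probe was not well above background in any mouse, and the Psmb11 probe was well above background in 1 MRL/+ mouse only. Psme4, which codes for the PA200 activator, was not kept either, although 1 of its probes was well above background in all 8 lpr-bearing mice and in 2 MRL/+ mice. No spot of a proteasome gene was saturated in any mouse.

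The knocked-out gene was read first. MRL/lpr mice had a Tnfrsf12a level of 1.68 ± 0.246 (SD, n = 4), Fn14ko mice 0.694 ± 0.0786 (n = 4) and MRL/+ mice 1.11 ± 0.152 (n = 4), so the Fn14ko mice were the lowest, with no overlap with either group, though their signal stayed well above background in all 4. Whether the probe lies in the deleted part was not determined. The red channel of the MRL/+ slide stood apart: 35.0% and 21.2% of spots were well above background in MRL/+ replicates 2 and 4, against 56.6% or more in each of the other 10 mice, and of the 59 proteasome probes 48 and 37 were well above background there, against 54 to 57 elsewhere. In those 2 mice the median dark control spot read 6.79 and 6.56 times background, against 1.14 to 2.74 in the other 10 mice. The Fn14ko mice in Cy5, at 2.64 and 2.74, were also above the filter's limit of 2. A spot kept in these channels can thus be no brighter than a dark control spot.

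In MRL/lpr cortex against MRL/+, 1 of the 44 proteasome genes tested was higher (Psma7) and 1 was lower (Psmb2) at an adjusted p under 0.05 by limma across all 17302 genes. The same test called 6.03% of all genes higher and 8.37% lower, and the share among the proteasome genes was 2.27% in each direction. In Fn14ko against MRL/+, none of the 44 was called higher, against 0.237% of all genes, and 1 was called lower (Psmb2), against 0.717% of all genes. Between MRL/lpr and Fn14ko none was called in either direction by limma, against 2.58% of all genes higher and 1.99% lower, and 5 of the 44 had an unadjusted p under 0.05, beside 3216 of all 17302 genes. Other settings of the background correction, filter or model changed these counts. Background subtraction without normexp, for one, called 14, 10 and 8 of the 44 genes in the 3 comparisons, beside 29.7%, 16.4% and 16.5% of all genes. The methods' t-test after Benjamini-Hochberg adjustment called 0 between MRL/lpr and Fn14ko, beside 1.05% of all genes. Leaving out MRL/+ replicate 3 gave 9 of the 44 genes for MRL/lpr and 10 for Fn14ko against the controls, beside 32.1% and 12.5% of all genes. Leaving out Fn14ko replicate 2 or MRL/+ replicate 4 gave 0 genes in Fn14ko against MRL/+, beside 0.15% and 0.0462% of all genes, where 15 of the 44 genes, and 3790 of all 17302, had an unadjusted p under 0.05 in the fit of all mice.

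**Figure D1:**
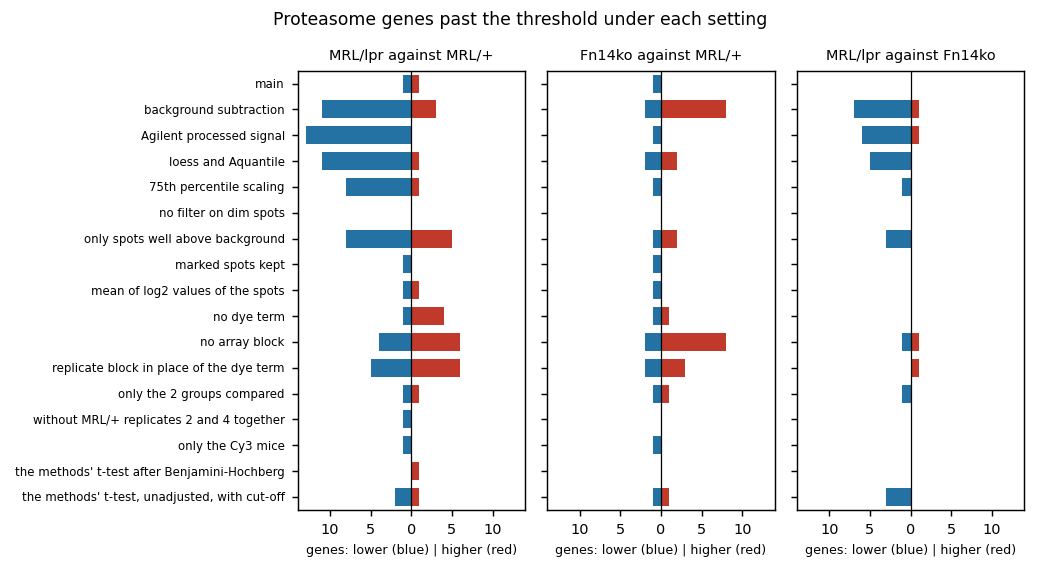
Number of proteasome genes past the adjusted threshold under the processing used here, named main, and under each alternative, with lower genes drawn to the left of 0 in blue and higher genes to the right in red. On Agilent's processed signal all 13 proteasome genes past the threshold in MRL/lpr against MRL/+ are lower, where 17.7% of all genes pass. Without the filter on dim spots no proteasome gene passes in any comparison, beside 0.0755%, 0% and 0.11% of all genes.

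**Figure D2:**
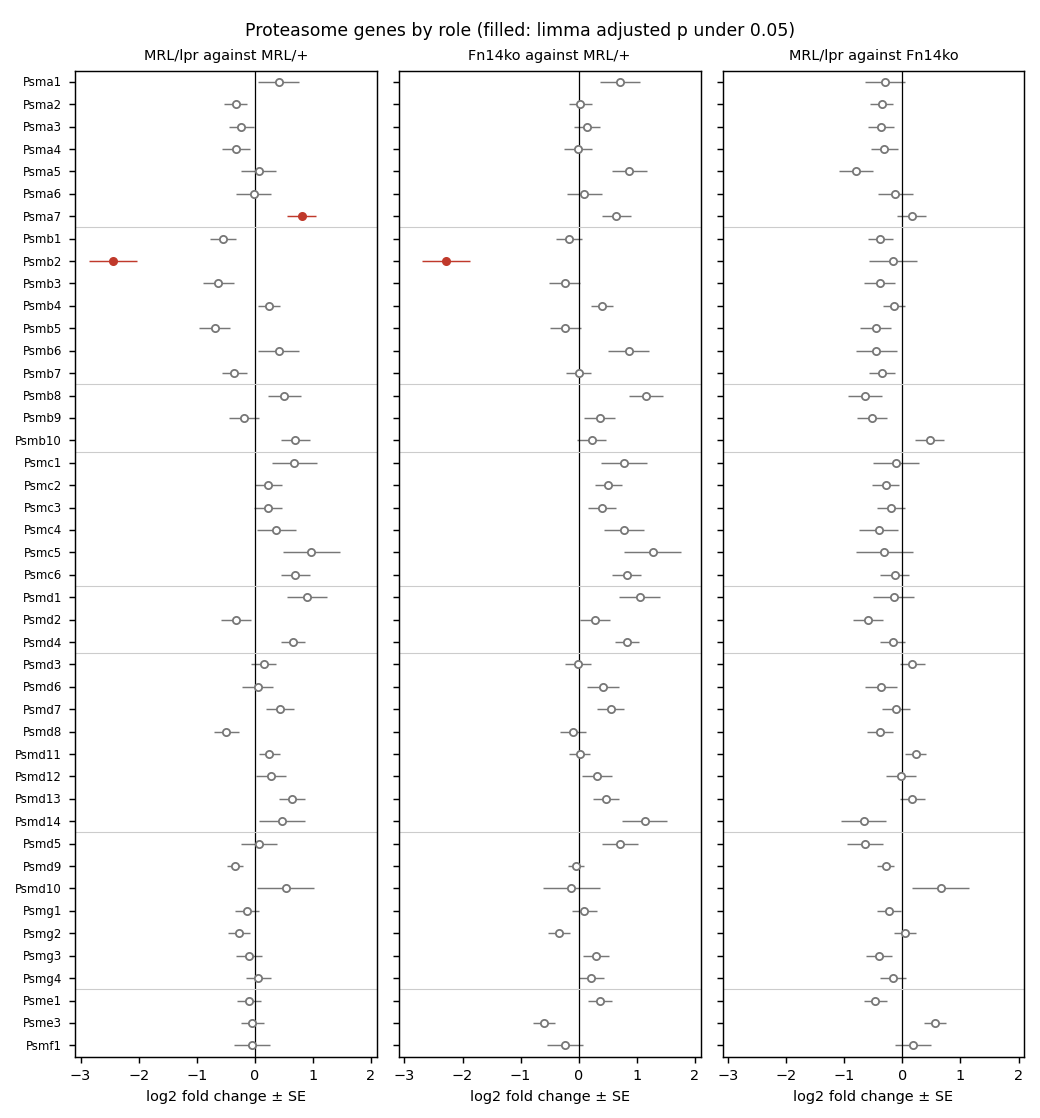
Log2 fold change of each of the 44 proteasome genes tested in the 3 comparisons, grouped by place in the complex, with error bars of 1 standard error from limma and filled points at an adjusted p under 0.05. Psmb2 sits at -2.44 and -2.28 against MRL/+, outside the range of the other proteasome genes tested. The 6 ATPases, Psmc1 to Psmc6, lie above 0 in both comparisons with MRL/+, where on Agilent's processed signal 1 and 2 of the 6 did.

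Psmb2 codes for a beta-ring subunit without an active site. Its level was 0.229, 0.209, 0.196 and 0.307 in MRL/lpr replicates 1 to 4. In Fn14ko it was 0.301, 0.414, 0.118 and 0.308. In MRL/+ it was 1.30, 1.14, 1.70 and 0.993, so that every lpr-bearing mouse, with or without Fn14, was below every MRL/+ mouse. The difference was -2.44 on the log2 scale (SE 0.41, adjusted p = 0.00287) in MRL/lpr and -2.28 (SE 0.41, adjusted p = 0.026) in Fn14ko, and the exact permutation test over mice gave its smallest 2-sided value, p = 0.0286 for n = 4 against 4, in both. MRL/lpr and Fn14ko differed by -0.16 (SE 0.41, adjusted p = 0.889). The probe was well above background in 3, 4 and 3 mice of MRL/lpr, Fn14ko and MRL/+. Against MRL/+ the differences were -2.81 (MRL/lpr) and -2.98 (Fn14ko) in the Cy3 mice alone and -2.07 and -1.58 in the Cy5 mice alone. Both calls were lost without the filter on dim spots (-1.84, adjusted p = 0.158, and -1.55, adjusted p = 0.559) and by the methods' t-test after Benjamini-Hochberg adjustment over all genes (adjusted p = 0.0761 and 0.204). In Fn14ko the limma call was also lost without Fn14ko replicate 2 (-2.42, adjusted p = 0.0728), MRL/+ replicate 4 (-2.53, adjusted p = 0.0991) or both MRL/+ replicates 2 and 4 (-2.81, adjusted p = 0.0603).

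Psma7 codes for an alpha-ring subunit. It read 12, 10.2, 12.9 and 9.63 in MRL/lpr, 8.1, 11, 9.52 and 11.5 in Fn14ko and 7.55, 4.98, 8.39 and 5.05 in MRL/+. All 4 MRL/lpr mice were above all 4 MRL/+ mice, and the Fn14ko mice overlapped with both groups. The difference between MRL/lpr and MRL/+ was 0.81 (SE 0.25, adjusted p = 0.0493), just inside the threshold. The 2 MRL/+ mice in Cy5 were the lowest, and the call did not hold without MRL/+ replicate 2 (adjusted p = 0.0666) or replicate 4 (adjusted p = 0.264), without any 1 of the 4 MRL/lpr mice (adjusted p = 0.0626 to 0.0937), or in the Cy3 mice alone (0.65, adjusted p = 0.125). On Agilent's processed signal the difference was -0.04 (adjusted p = 0.853). Psmd4, named after its values were seen, lay just outside the threshold. It codes for a ubiquitin receptor of the cap and read 20.7, 23.9, 22.0 and 22.1 in MRL/lpr, 20.4, 28.9, 23.8 and 27.5 in Fn14ko and 14.6, 15.9, 15.2 and 11.1 in MRL/+. Every lpr-bearing mouse was above every MRL/+ mouse, with differences of 0.66 (SE 0.21, adjusted p = 0.0503) in MRL/lpr and 0.83 (SE 0.21, adjusted p = 0.073) in Fn14ko. Psmd4 passed the threshold in both groups without the dye term, without the array block, with the replicate block and without MRL/+ replicate 3. It also passed in both with spots well above background in all 12 mice. In MRL/lpr it passed without MRL/+ replicate 1 or 2, and in Fn14ko with plain background subtraction, loess normalisation or without Fn14ko replicate 1. By the methods' t-test after Benjamini-Hochberg adjustment Psmd4 was the only proteasome gene called in MRL/lpr, beside 4.17% of all genes. At that test's unadjusted threshold with a cut-off on the ratio, Psmd4 passed in MRL/lpr and Fn14ko, beside 11.8% and 3.44% of all genes.

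**Figure D3:**
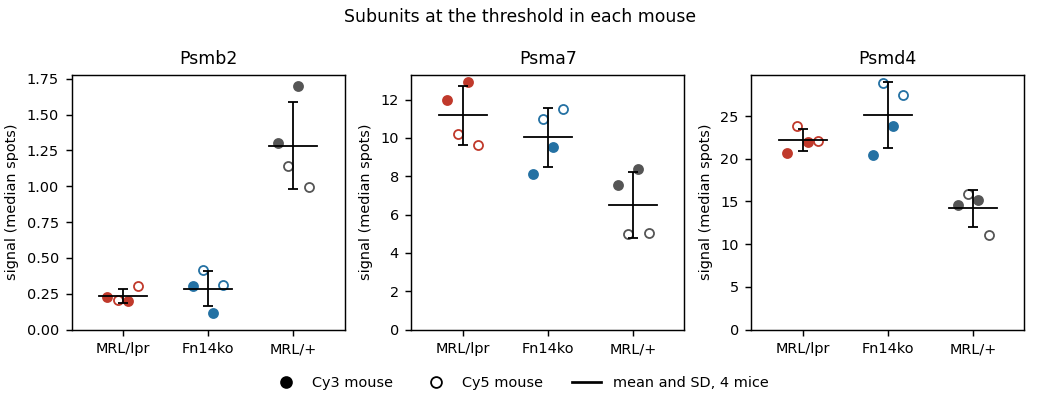
Level of Psmb2, Psma7 and Psmd4 in each mouse on a linear axis, in units of the mouse's median kept spot, with filled points for Cy3 and open points for Cy5 mice, and a line and bar for the mean and SD of the 4 mice. For Psmb2 the 8 lpr-bearing mice lie below all 4 MRL/+ mice, and for Psma7 the 2 Cy5 mice of MRL/+ are the lowest of the 12.

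Among the inducible subunits, none passed the adjusted threshold in any of the 3 comparisons, but each had its own order of groups. Psmb8, which replaces Psmb5 and carries the chymotrypsin-like site, read 0.910, 0.970, 0.865 and 0.755 in MRL/lpr, 0.904, 1.81, 0.965 and 2.21 in Fn14ko and 0.691, 0.696, 0.494 and 0.594 in MRL/+. All 8 lpr-bearing mice were above the MRL/+ mice, and the 2 highest were the Fn14ko mice in Cy5. The differences against MRL/+ were 0.51 (SE 0.29, adjusted p = 0.218) in MRL/lpr and 1.16 (SE 0.29, adjusted p = 0.073) in Fn14ko. The probe was well above background in all 8 lpr-bearing mice but in 2 of the 4 MRL/+ mice. In Fn14ko the difference was 0.68 in the Cy3 mice and 1.64 in the Cy5 mice. In Fn14ko it passed the threshold in 7 settings, among them plain background subtraction (1.39, adjusted p = 0.00383) and loess normalisation (1.28, adjusted p = 0.0162), and in MRL/lpr with plain background subtraction (0.69, adjusted p = 0.04).

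Psmb9, which replaces Psmb6, read 0.626, 0.588, 0.586 and 0.655 in MRL/lpr. In Fn14ko it was 0.683, 0.884, 0.671 and 1.53, above every MRL/lpr mouse, with replicate 4 alone over 1. MRL/+ mice overlapped with both groups at 0.663, 0.874, 0.474 and 0.843. The difference between MRL/lpr and Fn14ko was -0.53 (SE 0.26, adjusted p = 0.288). A second Psmb9 probe was not well above background in any of the 12 mice and was not kept.

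Psmb10, which replaces Psmb7 and carries the trypsin-like site, had another order. It read 12.6, 16.2, 12.2 and 12.2 in MRL/lpr, 6.94, 10.1, 10.6 and 11.1 in Fn14ko and 6.56, 6.75, 11.7 and 8.55 in MRL/+, so the MRL/lpr mice were above all mice of both other groups. The difference was 0.70 (SE 0.25, adjusted p = 0.0778) from MRL/+ and 0.47 (SE 0.25, adjusted p = 0.344) from Fn14ko. The difference from MRL/+ passed the threshold in 5 settings, which were plain background subtraction (0.56, adjusted p = 0.022), spots well above background in all 12 mice (0.50, adjusted p = 0.0337), no array block (0.70, adjusted p = 0.0298), the replicate block (0.70, adjusted p = 0.026) and leaving out MRL/+ replicate 3 (0.88, adjusted p = 0.0181). It was 0.35 (adjusted p = 0.088) on Agilent's processed signal. Psmb10 passed against Fn14ko on Agilent's processed signal (0.47, adjusted p = 0.0435).

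The constitutive counterparts of these 3 genes showed no call in the main processing either. Psmb5 read 13.2, 14.4, 23.0 and 25.0 in MRL/lpr, 20.2, 27.6, 21.3 and 32.6 in Fn14ko and 25.4, 24.5, 36.0 and 32.4 in MRL/+, a difference of -0.69 between MRL/lpr and MRL/+ (SE 0.27, adjusted p = 0.0946). Its 2 probes differed, with -0.34 (SE 0.24) for A_55_P2115068, whose sequence is shown, and -0.87 (SE 0.32) for A_55_P2144850. Within MRL/lpr the first read 13.2, 11, 13.3 and 11.3 and the second 13.1, 17.7, 32.6 and 38.6, so the spread of Psmb5 among these mice came from the second probe. Psmb6, the caspase-like subunit, read 15.4, 17.9, 16.5 and 15.1 in MRL/lpr, 19.4, 24.9, 21.0 and 23.6 in Fn14ko and 14.9, 10.9, 20.7 and 6.63 in MRL/+. The MRL/lpr and Fn14ko mice did not overlap for Psmb6 (-0.45, SE 0.35, adjusted p = 0.56), and the MRL/+ mice differed by dye. On Agilent's processed signal the difference between MRL/lpr and Fn14ko passed the threshold (-0.49, adjusted p = 0.0285). For Psmb6 the difference between MRL/lpr and MRL/+ was 0.41 (SE 0.35, adjusted p = 0.413), and -0.53 (adjusted p = 0.0125) on Agilent's processed signal. Psmb7 read 13.2, 10.7, 12.7 and 9.34 in MRL/lpr, 13.3, 16.3, 15.8 and 12.8 in Fn14ko and 14.3, 11.3, 20.6 and 13.3 in MRL/+, and its difference was -0.35 (SE 0.22) both between MRL/lpr and MRL/+ (adjusted p = 0.254) and between MRL/lpr and Fn14ko (adjusted p = 0.432).

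**Figure D4:**
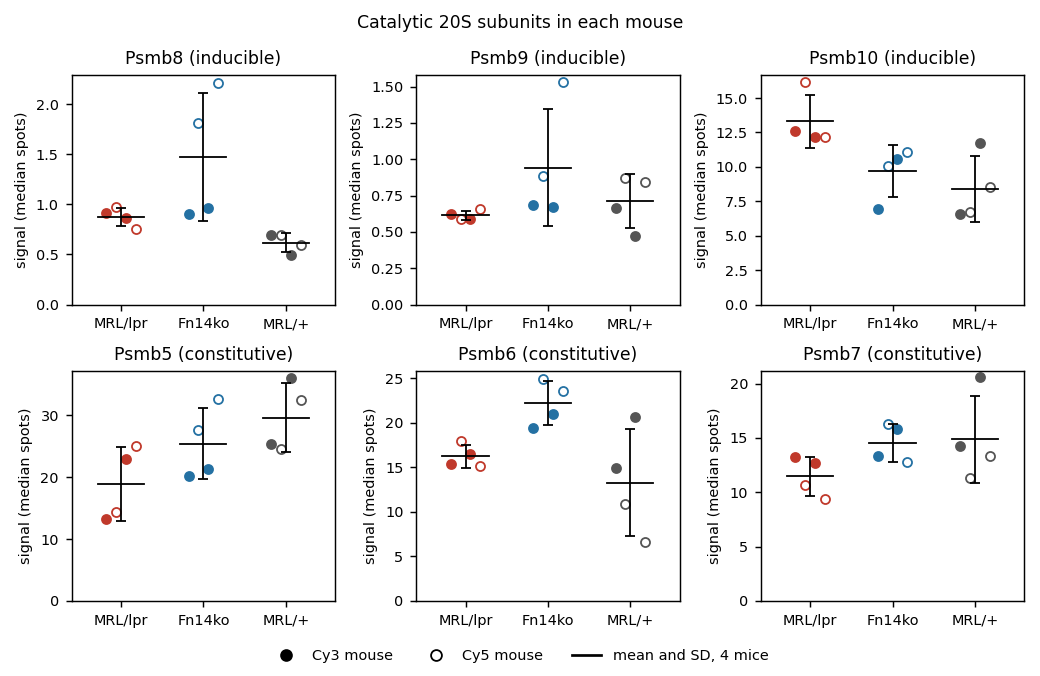
Level on a linear axis of the 3 inducible beta subunits and of the 3 constitutive ones they replace, for each mouse, in units of the mouse's median kept spot, with Cy3 and Cy5 mice marked apart. The 4 MRL/lpr mice lie highest for Psmb10, and the Fn14ko mice in Cy5 lie highest for Psmb8.

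Setting each inducible subunit against its counterpart within a mouse removes any factor that scales the whole channel. These ratios were chosen after the values were seen and carry no test. They compare different probes, so only their differences between groups can be read. The log2 ratio of Psmb10 to Psmb7 was -0.07, 0.60, -0.05 and 0.39 in MRL/lpr, -0.93, -0.70, -0.57 and -0.20 in Fn14ko and -1.12, -0.74, -0.82 and -0.63 in MRL/+. MRL/lpr was above both other groups without overlap, by 0.82 over Fn14ko and 1.04 over MRL/+. The ratio of Psmb8 to Psmb5 was -3.86, -3.89, -4.73 and -5.05 in MRL/lpr, -4.49, -3.93, -4.46 and -3.88 in Fn14ko and -5.2, -5.14, -6.19 and -5.77 in MRL/+. It was 1.19 and 1.38 above MRL/+ in MRL/lpr and Fn14ko, again without overlap. With the Psmb5 probe A_55_P2115068 alone these differences were 0.85 and 1.33, and with A_55_P2144850 alone 1.38 and 1.40. On Agilent's processed signal they were 2.25 and 2.38. For Psmb9 to Psmb6 the differences from MRL/+ were -0.58 and -0.50, and on Agilent's processed signal 1.07 and 1.28, so their direction was not settled.

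The promoters of the inducible genes were read from RefSeq (GRCm38.p6). Psmb9 and Tap1, a peptide transporter gene, start back to back, and the whole stretch between them is 225 bases, at chr17:34187331-34187555, shown on the plus strand because it is the start region of both genes. Psmb8 is shown from 250 bases before its start, chr17:34197945-34198194 on the plus strand, with capitals at a match to TTCNNNGAA, the letters of a STAT site.
Psmb9 and Tap1: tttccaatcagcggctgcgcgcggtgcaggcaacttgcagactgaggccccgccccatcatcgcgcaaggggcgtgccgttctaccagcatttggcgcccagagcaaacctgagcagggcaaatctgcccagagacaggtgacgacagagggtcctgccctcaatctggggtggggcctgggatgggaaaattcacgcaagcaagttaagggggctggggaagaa
Psmb8: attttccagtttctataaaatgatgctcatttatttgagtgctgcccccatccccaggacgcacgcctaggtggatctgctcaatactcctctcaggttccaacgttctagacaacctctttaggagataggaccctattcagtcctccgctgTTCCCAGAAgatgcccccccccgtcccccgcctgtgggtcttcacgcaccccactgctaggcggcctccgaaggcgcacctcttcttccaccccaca

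Promoter windows of 300 bases were matched for 39 of the 47 genes, and 4 strings of letters were searched on both strands among 32851 windows. TTCNNNGAA was in 8.3% of all windows and in those of Psmb8, Psmd2 and Psmg1. GAAANNGAA, from the interferon-response element, was in 8.56% of all windows and in those of 7 genes, of which only Psme1 is interferon-inducible. GGGACTTTC, an NF-kappaB site, was in 0.353% of all windows and in none of the 39 genes. TGACNNNGC, from the antioxidant-response element, was in 12.4% of all windows and in those of 6 genes, Psmb5 and Psmb6 among them. A match is a string of letters and was not tied to binding here.

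The 4 other beta-ring genes, which have no active site, held Psmb2 above and 3 genes with smaller differences. Psmb1 read 5.83, 4.35, 4.21 and 4.58 in MRL/lpr, 5.34, 6.14, 6.56 and 6.5 in Fn14ko and 6.20, 5.88, 9.74 and 6.37 in MRL/+. All MRL/lpr mice were below all MRL/+ mice (-0.55, SE 0.22, adjusted p = 0.0999). For Psmb3 the difference between MRL/lpr and MRL/+ was -0.63 (SE 0.27, adjusted p = 0.121), and for Psmb4 it was 0.25 (SE 0.19, adjusted p = 0.348). Over the 7 beta-ring genes the median difference from MRL/+ was -0.55 for MRL/lpr and -0.17 for Fn14ko, and that between MRL/lpr and Fn14ko was -0.38, with all 7 below 0 (but Psmb2 was 0.09 with background subtraction, 0.15 on Agilent's processed signal and 0.17 in the Cy3 mice), beside a median over all genes tested of -0.10, -0.10 and -0.07. Psmb1, Psmb3, Psmb5 and Psmb7 passed the threshold as lower in MRL/lpr than in MRL/+ with plain background subtraction, Agilent's processed signal, loess normalisation, scaling to the 75th percentile, and spots well above background in all 12 mice.

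The alpha ring gates entry to the barrel. Besides Psma7, its largest difference was in Psma5, which read 4.85, 4.99, 6.53 and 5.56 in MRL/lpr, 8.08, 9.10, 9.96 and 10.9 in Fn14ko and 6.52, 4.96, 7.43 and 2.98 in MRL/+. The Fn14ko mice were above all mice of both other groups, with a difference of 0.87 from MRL/+ (SE 0.30, adjusted p = 0.146) and of -0.80 between MRL/lpr and Fn14ko (SE 0.30, adjusted p = 0.166). Of 23 other settings, Psma5 passed the threshold in 7 between MRL/lpr and Fn14ko (lowest adjusted p = 0.0124, on Agilent's processed signal) and in 3 between Fn14ko and MRL/+ (lowest adjusted p = 0.0348, without the array block). The other 5 alpha genes, Psma1, Psma2, Psma3, Psma4 and Psma6, differed from MRL/+ by -0.33 to 0.41 (MRL/lpr) and by -0.01 to 0.71 (Fn14ko), with no call in the main processing. Psma2 and Psma4 passed as lower in MRL/lpr than in MRL/+ with background subtraction, loess normalisation, 75th percentile scaling and spots well above background. Psma2 also passed on Agilent's processed signal, and Psma3 with background subtraction and loess normalisation. Against Fn14ko, Psma2 passed as lower with background subtraction and loess normalisation, and Psma3 with background subtraction.

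The 6 ATPases of the cap, Psmc1 to Psmc6, unfold the substrate. All 6 were above 0 in both comparisons with MRL/+ and below 0 between MRL/lpr and Fn14ko, with medians of 0.52, 0.78 and -0.24, and none passed the threshold in the main processing. The direction against MRL/+ turned with the processing. On Agilent's processed signal 1 of the 6 was above 0 in MRL/lpr and 2 in Fn14ko, with medians of -0.34 and -0.09, and Psmc1, Psmc3 and Psmc4 passed the threshold as lower in MRL/lpr. In the Cy3 mice alone 4 and 5 of the 6 were above 0, with medians of 0.03 and 0.12, and without MRL/+ replicates 2 and 4 only 2 of the 6 were above 0 in MRL/lpr, with a median of -0.04. With loess normalisation or scaling to the 75th percentile 4 of the 6 were above 0 in MRL/lpr. Without MRL/+ replicate 4 alone all 6 were above 0 in both, with medians of 0.16 and 0.41. Between MRL/lpr and Fn14ko 2 of the 6 were above 0 in the Cy3 mice (median -0.08). In that comparison 1 was above 0 without Fn14ko replicate 2 (median -0.10) or MRL/lpr replicate 1 (median -0.23). Psmc5 read 13.6, 12.2, 8.19 and 8.87 in MRL/lpr, 11.3, 13.8, 14.2 and 13 in Fn14ko and 8.17, 3.5, 12.3 and 2.32 in MRL/+, a difference of 0.97 (SE 0.49, adjusted p = 0.168) and 1.28 (SE 0.49, adjusted p = 0.173). The lowest mice were MRL/+ replicates 2 and 4, in Cy5, and the Cy3 mice of MRL/+ lay within the range of the MRL/lpr mice or just below it. Psmc6 read 3.44, 4.33, 3.57 and 2.6 in MRL/lpr, 3.28, 3.69, 3.81 and 4.32 in Fn14ko and 2.76, 2.1, 2.3 and 1.5 in MRL/+. For Psmc6 the Fn14ko and MRL/+ mice did not overlap (0.83, SE 0.25, adjusted p = 0.109). Some settings called ATPases as higher than in MRL/+. Psmc6 passed in MRL/lpr without the dye term, without the array block, with the replicate block and without MRL/+ replicate 1. In Fn14ko Psmc6 passed with background subtraction, without the array block and with the replicate block. Without MRL/+ replicate 3, Psmc1 and Psmc5 passed in MRL/lpr, and Psmc4 and Psmc5 in Fn14ko. Psmc5 also passed in Fn14ko with background subtraction and without the array block.

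The other base subunits of the cap include Psmd1, a large scaffold, and Psmd2, which binds ubiquitin-like domains. Psmd1 read 10.3, 9.61, 10.6 and 10 in MRL/lpr, 9.75, 13.2, 10.9 and 11.4 in Fn14ko and 7.70, 5.03, 8.15 and 2.73 in MRL/+. Every lpr-bearing mouse was above every MRL/+ mouse (0.90, SE 0.35, adjusted p = 0.0921 in MRL/lpr, and 1.05, adjusted p = 0.135 in Fn14ko), but on Agilent's processed signal the differences were -0.22 and 0.04. Psmd1 passed the threshold in 4 of 23 other settings in each lpr-bearing group. Psmd2 was lower in all MRL/lpr than in all Fn14ko mice (-0.60, SE 0.26, adjusted p = 0.229). This difference passed the threshold with plain background subtraction, Agilent's processed signal, loess normalisation and spots well above background in all 12 mice.

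The lid removes the ubiquitin chain, and Psmd14 is its deubiquitinase. Psmd14 read 2.02, 1.54, 2.44 and 1.88 in MRL/lpr, 2.81, 2.89, 3.36 and 3.34 in Fn14ko and 2.17, 0.917, 2.87 and 0.672 in MRL/+. The MRL/lpr mice were below all Fn14ko mice (-0.67, SE 0.39, adjusted p = 0.394), and Fn14ko was 1.14 above MRL/+ (SE 0.39, adjusted p = 0.145), where the Cy5 mice were again the lowest. Psmd13, a structural lid subunit, was higher in all lpr-bearing mice than in all MRL/+ mice (0.64, SE 0.22, adjusted p = 0.0652 in MRL/lpr, and 0.47, adjusted p = 0.228 in Fn14ko). In MRL/lpr it passed the threshold without the dye term, the array block or MRL/+ replicate 3. It also passed there with the replicate block and with spots well above background in all 12 mice. Psmd14 passed as higher in Fn14ko than in MRL/+ with background subtraction and without the array block or MRL/+ replicate 3. Psmd8, another lid gene, was lower in MRL/lpr than in MRL/+ (-0.49, SE 0.22, adjusted p = 0.138). This difference passed the threshold with background subtraction, Agilent's processed signal, loess normalisation, 75th percentile scaling and the replicate block. It also passed with spots well above background in all 12 mice. The 8 lid genes had medians of 0.26, 0.37 and -0.07 in the 3 comparisons.

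Among the activators and inhibitor, Psme1 codes for an interferon-inducible subunit of the PA28 cap and was read by 7 kept spots of 1 probe. It was 4.56, 4.71, 5.79 and 5.01 in MRL/lpr, 5.68, 7.86, 6.35 and 8.12 in Fn14ko and 5.08, 4.79, 6.13 and 5.48 in MRL/+, a difference of -0.47 (SE 0.20, adjusted p = 0.225) between MRL/lpr and Fn14ko. Psme1 passed the threshold as lower in MRL/lpr than in Fn14ko in 4 of 23 other settings, among them background subtraction (-0.54, adjusted p = 0.017), and as lower than in MRL/+ in 2, which were Agilent's processed signal (-0.51) and loess normalisation (-0.40, adjusted p = 0.0302). Psme3, the nuclear PA28 gene, read 0.859, 1.46, 0.864 and 1.74 in MRL/lpr, 0.619, 0.921, 0.728 and 0.977 in Fn14ko and 0.780, 1.39, 0.933 and 2.09 in MRL/+. The Fn14ko group had the lowest mean, -0.60 from MRL/+ (SE 0.19, adjusted p = 0.13, past the threshold in 4 of 23 other settings), and in every group the Cy5 mice were the higher. Psmf1, the PI31 inhibitor gene, differed by -0.05 (SE 0.31) between MRL/lpr and MRL/+.

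No probe was named Psme2, the partner of Psme1. Of 3 probes named Psme2b, 2 carried the accession of Psme2, so their reads cannot be assigned to Psme2 or to its copy Psme2b with certainty, and 2 of the 3 probes were kept. Probe A_55_P1996862 read 5.6, 6.6, 6.26 and 5.86 in MRL/lpr, 5.2, 7.59, 6.12 and 8.85 in Fn14ko and 4.39, 3.93, 4.68 and 3.09 in MRL/+. It did not overlap between MRL/+ and either other group (0.61, adjusted p = 0.106 in MRL/lpr, and 0.77, adjusted p = 0.123 in Fn14ko), whereas the other kept probe differed by -0.08 and 0.10.

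The 7 chaperone genes, which assemble rings and cap, had medians of -0.10, 0.10 and -0.23 and no call in the main processing. Psmd9 passed the threshold as lower in MRL/lpr than in MRL/+ with background subtraction and without the array block. Psmd5 passed as higher in Fn14ko than in MRL/+ without MRL/+ replicate 3. Psmd9, a chaperone of the cap, was the steadiest of the 44 genes within MRL/+. It read 0.823, 0.782, 0.809 and 0.840 in MRL/lpr, 1.11, 0.912, 1.04 and 0.943 in Fn14ko and 1.03, 1.11, 0.939 and 1.04 in MRL/+, so the MRL/lpr mice were below all mice of both other groups, with a difference of -0.34 from MRL/+ (SE 0.14, adjusted p = 0.12) and -0.29 from Fn14ko (SE 0.14, adjusted p = 0.30). Psmg2, a chaperone of the alpha ring, differed from MRL/+ by -0.28 (MRL/lpr) and -0.33 (Fn14ko), with an SE of 0.19. For Psmd10, which codes for gankyrin, the 2 probes disagreed, with -0.46 for A_55_P2180884 and 0.78 for A_66_P139393 in MRL/lpr against MRL/+. The second read 0.658, 0.611, 1.82 and 5.97 in the 4 MRL/lpr mice, so its mean rested on replicate 4.

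Groups that did not overlap gave another count. In MRL/lpr against MRL/+, 6 proteasome genes were higher in all mice (Psma7, Psmb8, Psmb10, Psmd1, Psmd4 and Psmd13; 13.6%, against 10.8% of all genes) and 3 were lower (Psmb1, Psmb2 and Psmd9; 6.82%, against 13.0% of all genes). In Fn14ko against MRL/+, 7 were higher (Psma5, Psmb8, Psmc6, Psmd1, Psmd4, Psmd13 and Psmg3; 15.9%, against 7.42% of all genes) and 1 was lower (Psmb2; 2.27%, against 6.09%). Between MRL/lpr and Fn14ko, 1 was higher in MRL/lpr (Psmb10; 2.27%, against 8.91% of all genes) and 8 were lower (Psma5, Psmb6, Psmb9, Psmd2, Psmd5, Psmd8, Psmd9 and Psmd14; 18.2%, against 11.3%). The comparisons with MRL/+ share their 4 control mice, and the genes within a complex share the same RNA.

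Over the 44 genes the median difference from MRL/+ was 0.08 for MRL/lpr, with 25 above 0, and 0.31 for Fn14ko, with 31 above 0, beside 7504 and 7433 of all 17302 genes above 0. On Agilent's processed signal both turned, to -0.22 and -0.05. Between MRL/lpr and Fn14ko it was -0.29, with 35 of 44 below 0, beside 9890 of all 17302 genes. These medians moved with the dye. In the Cy3 mice alone, 2 in each group, they were -0.11, 0.02 and -0.09, beside -0.11, -0.04 and -0.08 over all genes. In the Cy5 mice alone they were 0.30, 0.55 and -0.41, beside -0.12, -0.15 and -0.01. In Fn14ko against MRL/+, 37 of the 44 genes (84.1%) were above 0 in the Cy5 mice, against 42.7% of all genes. In the Cy3 mice 25 of the 44 (56.8%) were above 0, against 44.5% of all genes. Dye and mouse cannot be told apart within a group, since no mouse was read in both dyes.

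**Figure D5:**
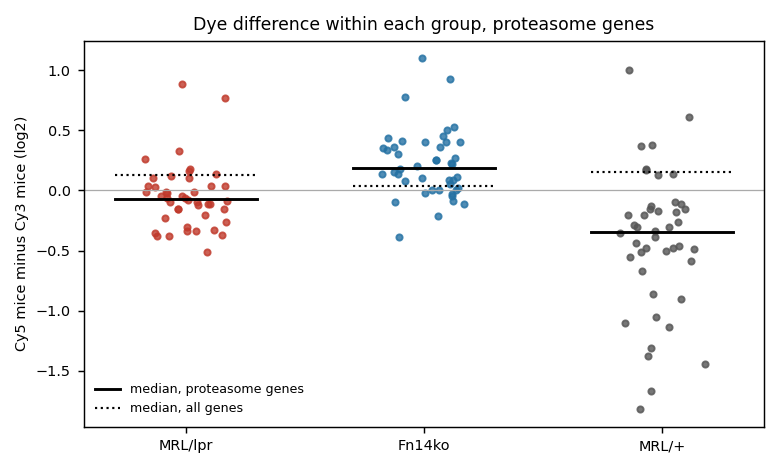
Difference between Cy5 and Cy3 mice of the same group for each of the 44 proteasome genes, on the log2 scale, with all genes tested for comparison. In MRL/+ 36 of the 44 genes are lower in the Cy5 mice, with a median of -0.35 and Psmc5 and Psmd14 at -1.82 and -1.67.

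Within MRL/+, 36 of the 44 proteasome genes (81.8%) were lower in the Cy5 than in the Cy3 mice, with a median of -0.35, against 39.7% of all genes and a median of 0.15. In MRL/lpr 30 of the 44 (68.2%) were lower in Cy5, with a median of -0.07, against 35.2% of all genes and a median of 0.13. In Fn14ko 10 of the 44 (22.7%) were lower in Cy5, with a median of 0.19, against 43.5% of all genes and a median of 0.04. The genes farthest apart in MRL/+ were Psmc5 (-1.82), Psmd14 (-1.67), Psmc4 (-1.44), Psmc1 (-1.38) and Psma1 (-1.31). The relative expression variability (REV) of the study's methods pools the coefficients of variation of a gene's spots within a group and multiplies them by a chi-square correction for the small number of mice, so it is larger than the plain SD in percent of the mean. It had a median over the 44 genes of 29.1% among MRL/lpr mice, 26.2% among Fn14ko mice and 55.3% among MRL/+ mice, beside 31.5%, 36.5% and 52.1% over all genes. The highest in MRL/+ were Psmc5 at 150% and Psmd14 at 135%, and the lowest was Psmd9 at 12.8%.

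Other genes of the pathway were read from a list of 25 genes for ubiquitin, shuttle factors, cap-bound enzymes and regulators, of which 24 were tested. In MRL/lpr against MRL/+, 2 of the 24 passed the threshold as higher, beside 6.03% of all genes, and 1 as lower, beside 8.37%. None passed by limma in the other comparisons, where 9 and 4 of the 24 had an unadjusted p under 0.05, beside 3790 and 3216 of all 17302 genes. Uchl5, a deubiquitinase bound to the cap, read 5.62, 4.83, 5.15 and 5.48 in MRL/lpr, 4.19, 4.46, 5.14 and 4.67 in Fn14ko and 3.30, 2.89, 4.15 and 2.72 in MRL/+ (0.71, SE 0.18, adjusted p = 0.0248 in MRL/lpr, and 0.51, adjusted p = 0.159 in Fn14ko). Ubqln4, a shuttle factor, read 1.63, 1.43, 2.4 and 1.82 in MRL/lpr and 1.66, 0.792, 1.23 and 0.604 in MRL/+ (0.85, SE 0.25, adjusted p = 0.0405). These groups overlapped (exact permutation p = 0.0857), and the probe was well above background in 2 of the 4 MRL/+ mice. Nfe2l1, the transcription factor that drives proteasome gene expression when the proteasome is inhibited, read 0.538, 0.373, 0.443 and 0.503 in MRL/lpr, 0.589, 0.434, 0.457 and 0.334 in Fn14ko and 0.808, 0.756, 0.937 and 0.919 in MRL/+. Every lpr-bearing mouse was below every MRL/+ mouse (-0.89, SE 0.21, adjusted p = 0.0156 in MRL/lpr, and -0.94, SE 0.21, adjusted p = 0.054 in Fn14ko). Nfe2l1 was well above background in 2 of the 4 MRL/+ mice.

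Of 13 genes of interferon signalling and peptide loading, 12 were tested. In MRL/lpr against MRL/+, Stat2 (0.65, SE 0.14, adjusted p = 0.0122) and Irf9 (0.90, SE 0.21, adjusted p = 0.0153), which form an interferon-activated complex, were higher. Irf9 was well above background in 2 of the 4 MRL/+ mice. Ifngr2, a chain of the interferon-gamma receptor, was lower (-1.16, SE 0.23, adjusted p = 0.00714). So 2 of the 12 were called higher, beside 6.03% of all genes, and 1 lower, beside 8.37%. None passed the threshold by limma in the other 2 comparisons, where 6 and 1 of the 12 had an unadjusted p under 0.05, beside 3790 and 3216 of all 17302 genes. Irf1, a factor that induces the inducible beta subunits, read 1.28, 1.16, 1.26 and 1.24 in MRL/lpr, 1.02, 1.66, 1.30 and 3.24 in Fn14ko and 0.924, 0.909, 0.872 and 0.955 in MRL/+. Its lpr-bearing mice were all above MRL/+ (0.43, adjusted p = 0.307 in MRL/lpr, and 0.84, adjusted p = 0.162 in Fn14ko), and Fn14ko replicate 4 was the highest of the 12 mice, as it was for Psmb8 and Psmb9. Tap1, the neighbour of Psmb9, read 0.117, 0.224, 0.114 and 0.230 in MRL/lpr and 0.380, 0.957, 0.131 and 1.38 in MRL/+, with the MRL/+ mice in Cy5 the highest (-1.65, SE 0.55, adjusted p = 0.0612). The MRL/+ mice in Cy5 also had the brightest dark control spots over background, and their part in the Tap1 levels was not tested.

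Markers of other cell types were read in the same way. The share of all genes called higher and lower was 6.03% and 8.37% for MRL/lpr and 0.237% and 0.717% for Fn14ko against the controls, and 2.58% and 1.99% for MRL/lpr against Fn14ko. In bulk RNA, a change in the number of cells of a type and a change in RNA per cell cannot be told apart. All 10 microglia markers were tested, and their summed level was 26.3 to 41.4 in MRL/lpr, 28.9 to 36.9 in Fn14ko and 25.5 to 31.7 in MRL/+, with 1 of 10 called higher in the MRL/lpr mice against the controls. Of 11 lymphocyte markers, 4 were tested (Cd3e, Cd4, Lck and Cd79a), with none called in any comparison by limma. In MRL/lpr and Fn14ko against MRL/+ and in MRL/lpr against Fn14ko, 0, 1 and 1 had an unadjusted p under 0.05. Beside these stood 6010, 3790 and 3216 of all 17302 genes. Cd3g and Ms4a1 were not well above background in any mouse, and Cd2 and Cd79b were well above background in all 4 Fn14ko mice, in 2 and 1 MRL/lpr mice and in no MRL/+ mouse. The 5 blood markers summed to 243 to 710 in MRL/lpr, 92.0 to 235 in Fn14ko and 77.3 to 124 in MRL/+. Of these, 2 were called higher in the MRL/lpr mice against the controls and 1 against Fn14ko. All 8 markers of cortical excitatory neurons were tested, and they summed to 33.0 to 40.5, 38.6 to 48.9 and 39.3 to 60.4 in MRL/lpr, Fn14ko and MRL/+ mice. Single markers went both ways, since 3 were called higher and 2 lower in the MRL/lpr mice against the controls (median 0.18), and 2 higher and 1 lower against Fn14ko (median 0.73). In the same order the 5 endothelial markers summed to 14.8 to 18.4, 7.95 to 16.8 and 8.4 to 11.5, with 2 called higher in MRL/lpr and 1 in Fn14ko against the controls. The 5 choroid plexus markers tested, of 6, summed to 6.35 to 98.1, 13.1 to 179 and 16.3 to 264, with 1 called lower in MRL/lpr against each other group. The 7 striatal markers summed to 13.1 to 22.9, 9.67 to 101 and 8.73 to 11.5, with a median of 15.4 in Fn14ko, so that 1 Fn14ko mouse stood far above the others. None of the 7 was called by limma in any comparison, and 3, 2 and 0 had an unadjusted p under 0.05, beside the same shares of all genes as for the lymphocyte markers. The part of these cells in the levels of the proteasome genes was not tested.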

How the data were processed

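The authors hybridised cortex RNA of 12 mice, 1 mouse per channel, to 6 Agilent 4x44k two-colour arrays on 3 slides and deposited the scanner output of Agilent Feature Extraction. The deposited values used were the mean foreground and median background intensity of each spot and channel, on a linear scale and not normalised; mm9 coordinates are those of the files. Spots marked by the scanner software, or with a foreground under 2 times background in any mouse, were left out, following the study's filter, which kept 24255 of 43020 non-control spots.

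From these, intensities were corrected with normexp (offset 50), divided by each channel's median and averaged over the spots of a gene, and their log2 was taken. limma 3.58.1 (R 4.3.3) fitted group and dye over all 12 mice with the array as a random block (correlation 0.316), eBayes with trend and Benjamini-Hochberg adjustment over all 17302 genes. Exact permutation tests were 2-sided over 70 divisions of 4 against 4 mice, so that p cannot go below 0.0286. The number of arrays limits the precision. Mice were replicates as labelled. Replicates within a group correlated at 0.9126 to 0.9876, with no duplicated sample.

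Genes named were the inducible subunits and their counterparts, those past the threshold, the 3 highest and 3 lowest members of each comparison, those whose probes differed by over 1 on the log2 scale and those not kept; other genes, such as those whose groups did not overlap, were named after their values were seen. The members and gene lists were chosen with earlier results of these data known. Alternatives covered background correction, normalisation, filters, summary, model terms, the samples fitted and the methods' t-test. The fit was tested on simulated data.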

Additional observations from a re-analysis of the deposited data

Results flagged for a closer look

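Psmb10 in MRL/lpr replicate 2 read 16.2, with the nearest of the other 3 MRL/lpr mice at 12.6. The gap was 0.899 of the range of the 4 mice, above Dixon's critical value for 4 values. It was 1 of 60 sets of 4 mice looked at in this way, of which chance alone marks about 5%.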

How the results depend on the processing

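Counts of proteasome genes past the threshold moved most. They are given in the order MRL/lpr against MRL/+ (A), Fn14ko against MRL/+ (B) and MRL/lpr against Fn14ko (C), where the counts as reported were 2, 1 and 0. The share of all genes called follows in the same order. Background subtraction gave 14, 10 and 8 (29.7%, 16.4% and 16.5%), Agilent's processed signal 13, 1 and 7 (17.7%, 5.85% and 10.9%), loess 12, 4 and 5 (27.2%, 8.95% and 13.3%), scaling to the 75th percentile 9, 1 and 1 (17.2%, 3.49% and 5.47%), no filter on dim spots 0, 0 and 0 (0.0755%, 0% and 0.11%), and spots well above background in all 12 mice 13, 3 and 3 of 33 genes (29.7%, 11.5% and 16.1%). Keeping marked spots gave 1 in A (13.1%), no dye term 5 and 2 in A and B (15.5% and 1.7%), no array block 10, 10 and 2 (30.0%, 10.9% and 10.3%), and fitting only the groups compared 2 and 1 in B and C (2.11% and 4.27%). The replicate block in place of the dye term gave 11, 5 and 1 (32.3%, 6.99% and 9.39%). The numbers share a dye, and the labels do not say that they pair the mice. Same-numbered mice correlated at -0.132 to 0.721 over 12 pairs, and other mice of the same dye at -0.688 to 0.303. These ranges overlap and cannot settle whether the numbers pair the mice. Leaving out MRL/+ replicates 2 and 4 together gave 1 and 0 in A and B (5.03% and 0.0347%), the Cy3 mice alone 1 in A (7.84%), the methods' t-test after adjustment 1 and 0 in A and B (4.17% and 0.0116%), and at its unadjusted threshold with a cut-off on the ratio 2 and 3 in B and C (3.44% and 7.87%). Leaving out 1 mouse gave 1 to 9, 0 to 10 and 0 to 0. The cause was not tested. Median differences of the 44 genes became 0.65, 0.95 and -0.42 without the filter, -0.22 and -0.05 in A and B on the processed signal and -0.09 in C in the Cy3 mice. In A it was also below 0 with background subtraction (-0.01), loess (-0.09), the 75th percentile (-0.16), spots well above background (-0.13), without MRL/+ replicates 2 and 4 (-0.19) and in the Cy3 mice (-0.11), while the median of all genes ranged from -0.34 to -0.02, -0.35 to 0 and -0.35 to 0. On the processed signal, Psmb6 turned to -0.53 (adjusted p = 0.0125) and Psma7 to -0.04 (adjusted p = 0.853) in MRL/lpr against MRL/+.

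Of 1158 values of single genes under an alternative, 1006 kept direction and side of the threshold, 18 lost it, 76 gained it, 56 changed sign with neither value past it, and 2 turned. Psmb2 lost its call in MRL/lpr without the filter and by the methods' t-test after adjustment, and held it in every other setting that tested it. A slide block could not be fitted, because each slide held 1 group. Dim spots of the MRL/+ mice in Cy5 limit the low levels, since the median dark control spot there read 6.79 and 6.56 times background.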
